A study of Mus musculus with 6 samples.

Results

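The genes described here encode the nuclear part of the mitochondrial respiratory chain: the subunits that the nucleus contributes to complexes I to V and factors that help assemble them. They were taken by name from the GENCODE M21 mouse annotation as protein-coding genes whose symbols begin with Nduf, Sdh, Uqcr, Uqcc, Cox followed by a digit, or Atp5, with Sdh limited to Sdha to Sdhd and Sdhaf1 to Sdhaf4. The rule found 110 gene models with 109 symbols among the 54146 genes of the count tables, and 102 of them had enough reads to be tested, out of 13755 tested genes in all. Complex I had 44 members, all tested, complex II 8 of 8, complex III 11 of 11, complex IV 22 of 29 and complex V 17 of 18. Ndufa4, which carries a complex I name, was counted with complex IV, where its protein is now placed.

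Total RNA of 4T1 cells, an established mammary carcinoma line of the BALB/c mouse strain, was depleted of ribosomal RNA and sequenced in 6 libraries. Wild-type cells (WT) and 2 knockout clones of genotype Mki67-/- (clone 1 and clone 2), in which the gene for Ki-67, a protein of dividing cells, is knocked out, were each represented by 2 libraries. All cells were grown in high-glucose DMEM with foetal bovine serum, and the labels name no treatment. Each clone is a single line, so loss of Ki-67 and differences between lines cannot be told apart. No label states whether both libraries of a group were separate cultures, so each p-value measures only how far these libraries spread, and that spread may be technical. Levels are given as CPM, the reads of a gene per 1000000 reads assigned to genes, after scaling of the libraries to each other. Changes are log2 fold changes ± standard error, and a gene was called when its Benjamini-Hochberg adjusted p over all 13755 genes, from edgeR's quasi-likelihood test, was under 0.05.

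As background, the chain sits in the inner mitochondrial membrane. Complex I takes electrons from NADH and complex II takes them from succinate, complex III passes them to cytochrome c, and complex IV passes them to oxygen, while complexes I, III and IV pump protons that drive ATP synthesis by complex V. The mitochondrial genome encodes a few core subunits of complexes I, III, IV and V, and the nucleus encodes all of complex II and every other subunit. Carcinoma cells grown in high glucose make much of their ATP by glycolysis but keep using the chain.

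The promoters of 5 members that the results below turn on are shown first, because nuclear genes of the chain are known to share binding motifs of the transcription factors NRF1, GABPA, YY1 and ERRα (gene Esrra). The 5 are Uqcrh, Uqcr10 and Atp5k, which fell in the clones, and Ndufaf4 and Uqcc2, which rose. They were chosen after their values and motifs were seen. Each stretch lies before the gene's start site in the RefSeq promoter table of build GRCm38.p6. It is read 5′ to 3′ on the strand of the gene and leaves out annotated exons apart from 9 bases of Atp5k. Capitals mark a match to 1 of the searched motifs.
Uqcrh: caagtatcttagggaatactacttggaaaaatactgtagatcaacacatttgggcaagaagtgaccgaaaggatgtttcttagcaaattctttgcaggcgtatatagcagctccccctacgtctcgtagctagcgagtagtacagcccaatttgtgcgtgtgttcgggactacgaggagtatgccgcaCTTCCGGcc
Uqcr10: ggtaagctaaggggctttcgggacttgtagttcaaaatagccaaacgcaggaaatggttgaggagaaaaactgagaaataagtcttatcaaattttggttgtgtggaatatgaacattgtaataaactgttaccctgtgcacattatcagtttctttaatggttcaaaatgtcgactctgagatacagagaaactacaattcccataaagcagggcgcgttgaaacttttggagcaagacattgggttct
Atp5k: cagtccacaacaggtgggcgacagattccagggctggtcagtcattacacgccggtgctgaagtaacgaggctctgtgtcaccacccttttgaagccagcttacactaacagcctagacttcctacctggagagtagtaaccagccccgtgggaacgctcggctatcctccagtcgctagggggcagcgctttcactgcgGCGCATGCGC
Ndufaf4: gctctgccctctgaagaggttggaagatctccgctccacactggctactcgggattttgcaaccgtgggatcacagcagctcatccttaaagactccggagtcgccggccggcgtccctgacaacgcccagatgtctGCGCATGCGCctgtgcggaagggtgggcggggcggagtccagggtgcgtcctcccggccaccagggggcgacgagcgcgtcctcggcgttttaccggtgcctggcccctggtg
Uqcc2: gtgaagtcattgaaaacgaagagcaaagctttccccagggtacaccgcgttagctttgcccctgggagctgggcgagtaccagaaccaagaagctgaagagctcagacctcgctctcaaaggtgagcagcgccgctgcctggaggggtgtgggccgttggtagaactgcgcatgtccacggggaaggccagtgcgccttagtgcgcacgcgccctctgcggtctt
The stretches lie at chr4:116075072-116075268 on the minus strand, chr11:4704345-4704594 on the minus strand, chr5:108434440-108434649 on the minus strand, chr4:24897833-24898082 on the plus strand and chr17:27133917-27134141 on the minus strand. In Uqcrh the capitals are a GABPA motif on the opposite strand that begins 10 bases before the start site. In both Atp5k and Ndufaf4 they are the NRF1 motif on both strands at once, beginning 50 bases before the start site of Atp5k and 113 bases before that of Ndufaf4. In GENCODE M21 the Atp5k gene starts earlier, and its 9 exonic bases lie within these capitals. By the RefSeq start sites, the same NRF1 letters stood before 1 of the genes shown that fell and 1 that rose. Because the 5 were picked with values and motifs known, this pairing was set by the choice and nothing is drawn from it. The stretches shown for Uqcr10 and Uqcc2 held none of the searched letters, but the whole 300-base window of Uqcc2 held the YY1 letters, and that of Atp5k also held those of GABPA and ERRα.

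Over whole promoter windows of 300 bases (250 before and 50 after the start site), 88 of the 109 member symbols could be matched. The NRF1 motif GCGCATGC, searched on both strands, was in 12 of the 88 windows (13.6%), against 3.77% of 16513 protein-coding promoters. For GABPA (CCGGAAG) the share was 28.4% against 12.3%, for YY1 (AAGATGGC) 13.6% against 3.27%, and for ERRα (AAGGTCA) 10.2% against 3.92%. The 16513 promoters include those of genes with too few reads to be tested, while nearly all matched members were tested. Shares over tested genes alone were not computed, so these differences are not taken as particular to the chain. In the mean of both clones against WT, the NRF1 letters were in 3 of 9 matched members that rose, 6 of 23 that fell and 3 of 52 that were not called. The GABPA letters were in 2 of 9, 7 of 23 and 16 of 52, the YY1 letters in 2 of 9, 1 of 23 and 9 of 52, and the ERRα letters in 0 of 9, 4 of 23 and 5 of 52. A match describes these letters in this window and says nothing on binding.

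Libraries held between 10428970 (WT replicate 1) and 22658499 (clone 1 replicate 2) reads assigned to genes. Mki67, the targeted gene, was at 736 and 647 CPM (WT), 85.8 and 102 CPM (clone 1) and 39.9 and 52.8 CPM (clone 2), a log2 change of -2.88 ± 0.15 in clone 1 and -3.90 ± 0.16 in clone 2 (adjusted p = 1.13e-08 and 1.52e-09, edgeR's quasi-likelihood test), in the direction of the labels. Epithelial markers (Epcam, Krt8, Krt18, Krt14 and Cdh1) were all detected and summed to 2549 and 2825 CPM in WT, below the 3627 to 3919 CPM of the clones, and the part of this difference in the results was not tested. The 5 did not move alike: in clone 2, 3 were called higher, 1 lower and 1 was not called. Over all tested genes, 25.2% were higher and 27.9% lower in clone 2. Immune markers summed to at most 0.180 CPM, with Cd3e and Adgre1 at 0 throughout, and fibroblast and endothelial markers to at most 0.531 CPM, with Cdh5 at 0. The WT libraries lay furthest apart: their counts differed by a chi-square of 79.9 per degree of freedom, against 19.0 in clone 1 and 25.9 in clone 2. In these bulk libraries, fewer cells expressing a gene and less RNA of it per cell cannot be told apart. Of the 102 tested members, 12 had over 20% of their 50-base stretches in transcripts of other genes, so their levels are less certain, and 38 had none.

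In the mean of both clones against WT, 30 of the 102 tested members fell and 11 rose, while 61 were not called. Over all tested genes, 29.3% were called lower and 26.5% higher (55.8% in all), so the share of members that fell (29.4%) was near the background and the share that rose (10.8%) was below it. The members' median log2 change was -0.15, beside -0.022 over all tested genes. Of the 41 calls, 20 of the 30 lower and 5 of the 11 higher were kept in all 17 alternative analyses other than a test against a minimum change of 1.5-fold, which kept 4 lower and 1 higher. Upper-quartile scaling gave 39 lower and 6 higher members. This moved the share of calls that were higher from 26.8% to 13.3%, and in clone 2 alone from 42.4% to 31.4%. Over all 13755 tested genes, that scaling gave 4581 lower and 3204 higher, and the 1.5-fold test 1692 and 1178.

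Clone 1 had 34 lower and 7 higher members, where the background was 26.0% lower and 24.5% higher (50.4% in all). Clone 2 had 19 lower (background 27.9%) and 14 higher (background 25.2%), with 53.1% of all tested genes called. These comparisons share the WT libraries, and their medians stood at -0.20 in clone 1 and -0.044 in clone 2. Compared directly, 19 members were higher in clone 2 than in clone 1 and 3 were lower, against a background of 11.3% higher and 10.7% lower (22.0% in all), with a median of 0.16.

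**Figure D1:**
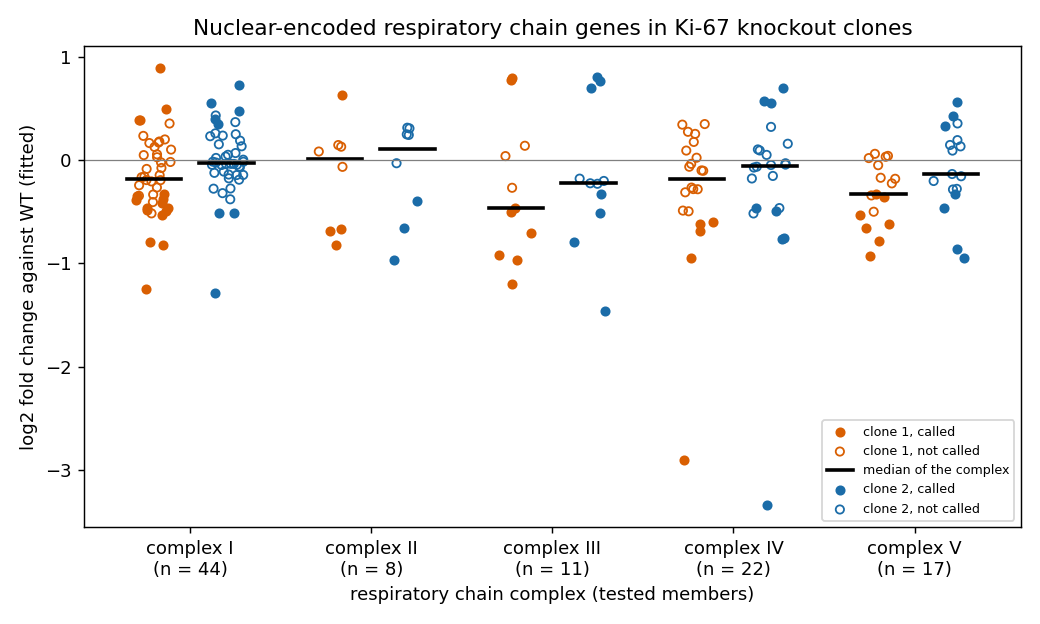
Fitted log2 fold change against WT (vertical axis) of each tested member in clone 1 (orange) and clone 2 (blue), by complex. Each point is 1 gene, filled points were called at an adjusted p under 0.05, and black bars are medians: complex III had the lowest medians, -0.46 in clone 1 and -0.22 in clone 2, and the point below -2 in complex IV is Cox6a2.

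By complex, the medians of the mean change were -0.12 for complex I, 0.074 for complex II, -0.32 for complex III, -0.20 for complex IV and -0.19 for complex V. The counts of calls stand beside 29.3% lower and 26.5% higher over all tested genes. Complex III had 7 of 11 members lower (63.6%) and 3 higher (27.3%), which left 1 not called. In a fit that took out the median log2 shift of every chromosome, 5 of them were lower and 3 higher. Over all 13755 tested genes, that fit called 3753 lower and 3444 higher. The lower calls of Uqcr11, Uqcrc2 and Uqcrfs1 were each lost in some alternative analyses. Complex I had 6 lower (13.6%), 4 higher (9.09%) and 34 not called of 44, both shares below the background. Complex II had 3 lower (37.5%) and 1 higher (12.5%) of 8, complex IV 7 lower (31.8%) and 3 higher (13.6%) of 22, and complex V 7 lower (41.2%) and 10 not called of 17. The lower share of complex IV was thus near the background, and in complex II a single gene moves the share by 12.5%. Complex III, with 11 members, is also small. No test was made between complexes, and the ranges of the medians of complexes I, IV and V overlapped when single libraries were left out.

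Summed over members, transcripts of the chain took 10618 ± 25.7 CPM (SD, n = 2) in WT, 9110 ± 385 in clone 1 and 11253 ± 799 in clone 2. Clone 1 was below WT in both libraries and clone 2 above it in both. A sum follows its most abundant gene: Atp5b, the catalytic beta subunit of complex V, made up 18.9% of the whole sum in WT and 47.2% of the sum of complex V. Complex V summed to 4244 ± 24.2 CPM in WT, 3581 ± 153 in clone 1 and 4741 ± 416 in clone 2. Complex I summed to 2628 ± 28.5, 2311 ± 78.7 and 2631 ± 177 CPM in the same order, complex III to 1156 ± 44.3, 976 ± 19.9 and 1187 ± 67.6, and complex IV to 1887 ± 11.9, 1635 ± 115 and 2032 ± 144. Complex II alone had a sum below WT in both clones, at 704 ± 5.41, 608 ± 18.5 and 661 ± 4.48 CPM. The sums were not tested.

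In complex I, the change of largest size among the members was a fall of Ndufb3, an accessory subunit of the membrane arm (gene at chr1:58586384-58595964). Its level was 29.8 and 35.0 CPM (WT), 12.9 and 14.5 CPM (clone 1) and 10.8 and 15.6 CPM (clone 2). Both WT libraries were above all 4 clone libraries, with no overlap. The mean log2 change was -1.27 ± 0.15 (adjusted p = 7.57e-06, edgeR's quasi-likelihood test), and the values in the clones were -1.25 and -1.29. Ndufa6, an accessory subunit of the matrix arm, was at 58.7 and 57.6 CPM (WT), 39.9 and 40.6 CPM (clone 1) and 37.2 and 44.5 CPM (clone 2) and fell by 0.52 ± 0.10 on the log2 scale (adjusted p = 0.000906). Ndufs1, the core subunit with the largest set of iron-sulfur clusters, was at 140.4 and 146 CPM (WT), 105 and 116 CPM (clone 1) and 95.8 and 105 CPM (clone 2), a mean change of -0.44 ± 0.096 (adjusted p = 0.00148). In both genes the WT values lay above every clone value. An alternative fit took out the median log2 shift of every chromosome (chromosome shifts removed). In it Ndufs1 was still lower in the mean of the clones but not in clone 1 (log2 change -0.245, adjusted p = 0.0934). Its clone 1 call was also lost without either clone 1 library and with no filter on low counts.

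The other members of complex I that fell in the mean of the clones were Ndufa8, Ndufb11 and Ndufc2, all accessory subunits and all with larger fitted falls in clone 1 than in clone 2. Ndufb11 was at 69.5 and 71.7 CPM (WT), 39.1 and 41.0 CPM (clone 1) and 61.7 and 55.2 CPM (clone 2). Clone 1 was lowest, clone 2 lay between clone 1 and WT, and no group overlapped another. Its change was -0.82 ± 0.12 in clone 1 (adjusted p = 6.99e-05), while clone 2 stood at -0.27 ± 0.12 (adjusted p = 0.0604). Ndufc2 fell by 0.46 in clone 1, and its mean change of -0.30 lost its call without WT replicate 1, either clone 1 library or clone 2 replicate 2 and with chromosome shifts removed. That call was also lost with no filter on low counts.

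Members of complex I that rose were the accessory subunits Ndufa13 and Ndufa7 and the assembly factors Ndufaf4 and Ndufaf5. Ndufaf4, which acts early in building the complex, was at 16.0 and 13.6 CPM (WT), 25.9 and 28.9 CPM (clone 1) and 21.9 and 21.2 CPM (clone 2). All 4 clone libraries exceeded both WT libraries. The mean change was 0.72 ± 0.13 (adjusted p = 0.000269). Ndufa13, also known as GRIM-19, was at 56.4 and 66.3 CPM (WT), 78.6 and 82.3 CPM (clone 1) and 102 and 101 CPM (clone 2), again with no overlap between WT and the clones. Its mean change of 0.56 ± 0.10 (adjusted p = 0.000503) became 0.22 (adjusted p = 0.0919) once chromosome shifts were removed. Its chromosome, 8, had median shifts of 0.28 in clone 1 and 0.40 in clone 2, and 28.5% of its 50-base stretches occur in transcripts of other genes, so its reads are less certain. Ndufa7 rose by 0.27 ± 0.11 in the mean of the clones (adjusted p = 0.0487) but was at -0.096 without the shift of chromosome 17, and it lost its call without any 1 of WT replicate 1, the clone 1 libraries or clone 2 replicate 1. Its call was also lost with upper-quartile scaling, DESeq2's Wald test, a filter of 1 CPM in 2 libraries or a block for the replicate number. The rise of Ndufaf5, a hydroxylase that modifies Ndufs7, was 0.38 ± 0.14 (adjusted p = 0.0285) and was likewise not called with shifts removed (0.11, adjusted p = 0.531), nor without WT replicate 1, clone 1 replicate 2 or either clone 2 library. Upper-quartile scaling and DESeq2's Wald test also lost that call.

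Per length, Ndufb9 had the highest WT level of complex I, at 251 RPKM, that is, CPM per kilobase of exon, and its mean change of -0.34 ± 0.15 was not called (adjusted p = 0.0684). The member nearest to no change was Ndufs4, an accessory subunit near the NADH-binding module, at 31.0 and 31.3 CPM (WT), 32.7 and 32.0 CPM (clone 1) and 29.7 and 31.0 CPM (clone 2). Clone 1 lay just above WT and clone 2 overlapped WT, and its mean change was 0.010 ± 0.10 (adjusted p = 0.939). In the mean of the clones, the 7 core subunits had 1 called member, Ndufs1, which was lower (14.3%). The 29 accessory subunits had 5 lower (17.2%) and 2 higher (6.9%), and the 8 assembly factors had 2 higher (25%). Over all tested genes, 29.3% were lower and 26.5% higher. In clone 1 alone, 3 core subunits were lower (42.9%) and 1 higher (14.3%), beside 26.0% and 24.5% over all tested genes. In clone 2 alone, 1 was lower and 1 higher.

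In complex II, both membrane anchors fell and the catalytic subunits did not pass the test. Sdhd, an anchor that holds ubiquinone and heme, was at 159 and 164 CPM (WT), 90.0 and 92.6 CPM (clone 1) and 98.6 and 107 CPM (clone 2). Sdhc, the other anchor, was at 158 and 155 CPM (WT), 97.4 and 99.5 CPM (clone 1) and 124 and 114 CPM (clone 2). In both anchors every clone value was below every WT value. Mean changes were -0.74 ± 0.092 for Sdhd (adjusted p = 1.55e-05) and -0.53 ± 0.092 for Sdhc (adjusted p = 0.00027). With chromosome shifts removed, Sdhc was no longer called in clone 2 (-0.225, adjusted p = 0.101). Sdha, the flavoprotein that oxidises succinate, was at 166 and 161 CPM (WT), 171 and 191 CPM (clone 1) and 181 and 207 CPM (clone 2), and Sdhb, the iron-sulfur subunit, was at 145 and 146 CPM (WT), 162 and 157 CPM (clone 1) and 181 and 164 CPM (clone 2). Every clone value of both genes was above every WT value, by a mean change of 0.20 ± 0.10 for Sdha and 0.19 ± 0.095 for Sdhb, and neither passed the test (adjusted p = 0.112 and 0.111). The differences between anchors and catalytic subunits were not tested.

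The assembly factors of complex II also differed among themselves. Sdhaf4, which helps join the flavin-carrying Sdha to Sdhb, was at 10.4 and 14.5 CPM (WT), 7.76 and 7.82 CPM (clone 1) and 5.18 and 7.60 CPM (clone 2). Its WT libraries were above all clone libraries, and it fell by 0.83 ± 0.18 on the log2 scale (adjusted p = 0.00138). In clone 1 its call was lost without WT replicate 2 (-0.41, adjusted p = 0.159) or either clone 1 library. Sdhaf3, which assists the iron-sulfur clusters of Sdhb, was at 6.61 and 4.61 CPM (WT), 7.89 and 9.22 CPM (clone 1) and 6.77 and 6.91 CPM (clone 2), low levels with every clone library above WT, and a mean change of 0.48 ± 0.18 (adjusted p = 0.0367). That call was lost without WT replicate 2 (0.21, adjusted p = 0.392), clone 1 replicate 2 or either clone 2 library, and with DESeq2's Wald test, upper-quartile scaling or chromosome shifts removed. Sdhaf2, which adds the flavin to Sdha, was nearest to no change, at 0.027 ± 0.11 (adjusted p = 0.848).

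Complex III held some of the changes of largest size. Uqcrh, the hinge protein that contacts cytochrome c1 (gene at chr4:116066965-116075071, with the GABPA letters in the stretch shown), was at 101 and 144 CPM (WT), 50.2 and 56.3 CPM (clone 1) and 40.4 and 48.8 CPM (clone 2). The WT libraries differed from each other, yet both were well above the clones. The mean change was -1.33 ± 0.13 (adjusted p = 2.10e-06). Uqcr10, a small subunit of the complex that had the highest WT level per length in complex III (179 RPKM), was at 96.0 and 114 CPM (WT), 52.2 and 58.9 CPM (clone 1) and 60.7 and 60.7 CPM (clone 2). No clone value reached a WT value, and it fell by 0.85 ± 0.10 (adjusted p = 1.29e-05). None of its 50-base stretches occur in transcripts of other genes, and for Uqcrh the share was 3.04%.

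Uqcrq and Uqcr11, further small subunits, were lower in clone 1 than in clone 2 by the direct test given further on. Uqcrq was at 151 and 146 CPM (WT), 91.0 and 91.9 CPM (clone 1) and 117 and 119 CPM (clone 2), with both WT values above all clone values and clone 2 above clone 1. Its change was -0.70 ± 0.11 in clone 1 and -0.33 ± 0.11 in clone 2 (adjusted p = 0.000125 and 0.0185). The clone 2 value was not called with chromosome shifts removed (-0.20, adjusted p = 0.132), without either clone 1 library or without clone 2 replicate 1. It kept its call in 9 of 11 fits that changed the method. Uqcr11 was at 68.9 and 56.9 CPM (WT), 30.6 and 33.7 CPM (clone 1) and 58.4 and 49.2 CPM (clone 2), where clone 2 overlapped WT and clone 1 lay below both. Its mean change of -0.59 (adjusted p = 0.00065) became -0.22 (adjusted p = 0.137) with shifts removed. It lies on chromosome 10, whose median shift was -0.40 in clone 1 and -0.355 in clone 2.

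Uqcrfs1, the Rieske iron-sulfur protein, fell by 0.32 ± 0.094 (adjusted p = 0.0103) and lost its call without clone 1 replicate 1. The call was kept in 9 of 10 fits that changed the method. Uqcrc1, a large core protein on the matrix side, instead rose. It was at 257 and 291 CPM (WT), 302 and 302 CPM (clone 1) and 485 and 407 CPM (clone 2), so clone 2 exceeded all other libraries and clone 1 lay just above WT. Its change was 0.70 ± 0.12 in clone 2 (adjusted p = 0.000298), against 0.14 ± 0.12 for clone 1 (adjusted p = 0.357). Uqcrc2, its partner, was close to the threshold at -0.25 ± 0.10 (adjusted p = 0.0498) and lost its call in 11 of 17 alternative analyses. Uqcrb, a ubiquinone-binding subunit, was nearest to no change of the complex (-0.081 ± 0.17, adjusted p = 0.712), with 25.5% of its 50-base stretches shared with other transcripts.

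All 3 assembly factors of complex III, which act on newly made cytochrome b, were called. Uqcc1 was at 27.6 and 31.4 CPM (WT), 51.0 and 51.3 CPM (clone 1) and 54.8 and 48.3 CPM (clone 2), and Uqcc2 was at 62.6 and 74.6 CPM (WT), 119 and 116 CPM (clone 1) and 132 and 103 CPM (clone 2). In both, every clone library was above every WT library. Uqcc1 rose by 0.80 ± 0.11 (adjusted p = 4.44e-05) and Uqcc2 by 0.77 ± 0.12 (adjusted p = 0.000135). The rise of Uqcc2 in clone 1 lost its call with chromosome shifts removed (0.22, adjusted p = 0.209), where its chromosome, 17, had a median shift of 0.56. Uqcc3 went the other way, at 24.0 and 25.6 CPM (WT), 18.7 and 16.2 CPM (clone 1) and 15.7 and 19.0 CPM (clone 2), a mean change of -0.51 ± 0.12 (adjusted p = 0.00345). Its clone 1 call was lost without clone 1 replicate 2 and its clone 2 call without clone 2 replicate 1.

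**Figure D2:**
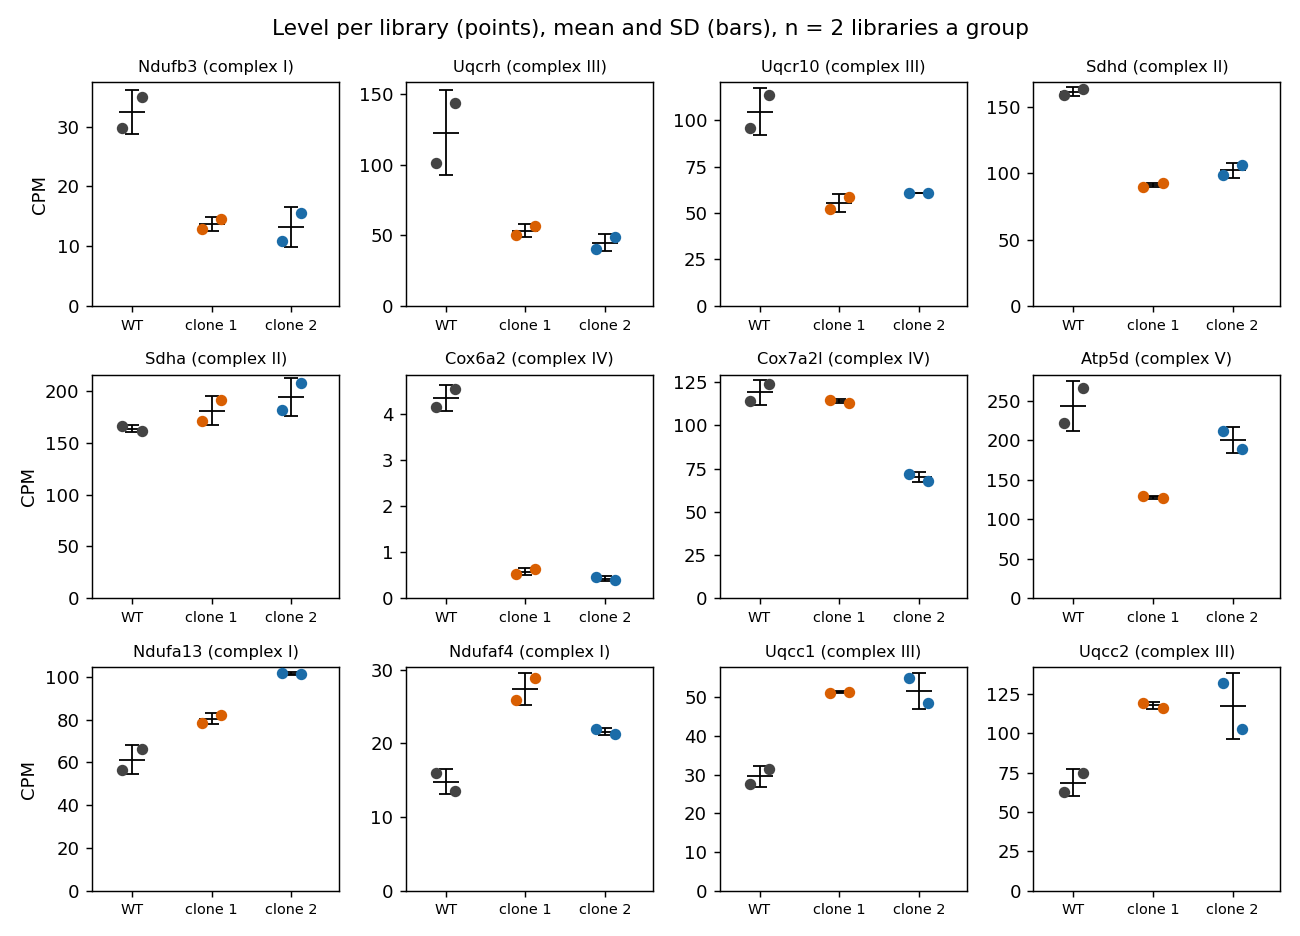
Level in CPM (vertical axes, each from 0) of 12 members in each library. Points are libraries, and bars are the mean ± SD of 2 libraries a group: Ndufb3, Uqcrh, Uqcr10, Sdhd and Cox6a2 were lower in all 4 clone libraries than in WT, Ndufa13, Ndufaf4, Uqcc1 and Uqcc2 were higher, and Cox7a2l and Atp5d were lower in 1 clone than in the other.

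In complex IV, Cox6a2, the isoform of heart and skeletal muscle, had the change of largest size of all members. It was at 4.14 and 4.55 CPM (WT), 0.529 and 0.629 CPM (clone 1) and 0.471 and 0.389 CPM (clone 2), from 42 and 77 reads (WT), 12 and 14 reads (clone 1) and 8 and 9 reads (clone 2). The mean log2 change was -3.12 ± 0.24 (adjusted p = 2.05e-07). The level was low throughout: per length it stood at 6.39 RPKM in WT, beside 324 RPKM for Cox6a1, the isoform of most tissues. Cox6a1 was at 227 and 228 CPM (WT), 136 and 147 CPM (clone 1) and 241 and 205 CPM (clone 2), with clone 1 below both other groups and clone 2 overlapping WT. Its change in clone 1 was -0.69 ± 0.12 (adjusted p = 0.000301), and its mean change of -0.36 was not called with chromosome shifts removed (-0.20, adjusted p = 0.111).

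Cox6b1, a subunit facing the intermembrane space that contacts cytochrome c, was at 168.3 and 136 CPM (WT), 70.6 and 86.9 CPM (clone 1) and 125 and 96.0 CPM (clone 2). Both clones lay below both WT libraries, clone 1 more so. Its mean change was -0.70 ± 0.13 (adjusted p = 0.000462). In clone 2 the change of -0.46 lost its call without WT replicate 1, without clone 2 replicate 2 or with no filter on low counts. Cox7a2, the isoform of most tissues, was at 82.2 and 78.4 CPM (WT), 45.9 and 58.5 CPM (clone 1) and 58.7 and 55.2 CPM (clone 2) and fell by 0.56 ± 0.11 (adjusted p = 0.000801) with no overlap. Cox7b was at 74.2 and 53.3 CPM (WT), 36.8 and 53.9 CPM (clone 1) and 34.6 and 40.7 CPM (clone 2), where 1 clone 1 library reached the lower WT library. Its mean change of -0.62 (adjusted p = 0.0114) was lost without WT replicate 1 (-0.36, adjusted p = 0.131) and with shifts removed (-0.45, adjusted p = 0.0533). 

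Cox7a2l, a relative of Cox7a that links complexes III and IV into supercomplexes, was the member lowest in clone 2 relative to clone 1. It was at 114 and 124 CPM (WT), 115 and 113 CPM (clone 1) and 72.1 and 68.1 CPM (clone 2). Clone 1 overlapped WT, and clone 2 was below both. The change was -0.064 ± 0.11 in clone 1 (adjusted p = 0.655), while clone 2 stood at -0.76 ± 0.11 (adjusted p = 7.23e-05). The gene lies on chromosome 17, whose median shift was 0.56 in clone 1 and 0.18 in clone 2.

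Cox4i1, the isoform of most tissues of the subunit that binds nucleotides, was at 456 and 534 CPM (WT), 498 and 509 CPM (clone 1) and 778 and 699.6 CPM (clone 2). Clone 2 was above all other libraries, with a change of 0.58 ± 0.12 (adjusted p = 0.00108), and clone 1 lay within the range of WT. Once chromosome shifts were removed, clone 2 was no longer called (0.18, adjusted p = 0.215). The mean change of 0.30 (adjusted p = 0.024) turned to -0.039 (adjusted p = 0.772) in the same fit. Its call was also lost without WT replicate 1, either clone 1 library or clone 2 replicate 1 and with upper-quartile scaling. Its partner isoform Cox4i2 was at most at 0.176 CPM in any library. The testis or muscle isoforms Cox6b2, Cox7b2, Cox8b and Cox8c and the hypoxia-responsive Ndufa4l2 had no read in any library, for which the 3-count limit is 0.132 to 0.288 CPM per library, a limit for counting error only. Cox7a1, the muscle isoform, was at 0.296 and 0.590 CPM (WT), 0.0881 and 0.0899 CPM (clone 1) and 0 and 0.0432 CPM (clone 2). Cox8a (-0.17 ± 0.10, adjusted p = 0.169) and Ndufa4 (0.34 ± 0.19, adjusted p = 0.165) were not called, and Cox6c was nearest to no change (-0.024 ± 0.099, adjusted p = 0.851).

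The assembly factors of complex IV had 2 higher, 1 lower and 6 not called. Cox10, which makes the heme A precursor, was at 14.5 and 15.1 CPM (WT), 18.9 and 18.7 CPM (clone 1) and 25.6 and 22.6 CPM (clone 2) and rose by 0.52 ± 0.12 (adjusted p = 0.00234), with all clone libraries above WT. Cox18, which inserts a mitochondrially encoded subunit into the membrane, was at 20.8 and 25.4 CPM (WT), 25.5 and 24.1 CPM (clone 1) and 34.0 and 34.3 CPM (clone 2). Its clone 2 libraries were above all others, while clone 1 overlapped WT. The mean change of 0.32 ± 0.12 (adjusted p = 0.0315) was lost without any 1 of WT replicate 1 or the 4 clone libraries. Upper-quartile scaling and DESeq2's Wald test also lost it. Cox19, a copper-related factor, fell by 0.39 ± 0.13 (adjusted p = 0.0192), a call lost without WT replicate 2, clone 1 replicate 2 or clone 2 replicate 2 and with shifts removed. It was also lost with no filter on low counts.

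In complex V, the members that fell in the mean of the clones were the membrane subunits Atp5k, Atp5l, Atp5j2 and Atp5mpl, the F1 subunit Atp5d, the stalk subunit Atp5o and the coupling factor Atp5s. Atp5k (subunit e, with the NRF1 letters in the stretch shown) was at 79.8 and 64.0 CPM (WT), 36.9 and 46.6 CPM (clone 1) and 53.9 and 50.2 CPM (clone 2). No clone library reached WT, and the mean change was -0.62 ± 0.12 (adjusted p = 0.000706). In clone 2 the change of -0.47 lost its call without WT replicate 1 or either clone 2 library and with chromosome shifts removed. Atp5j2 (subunit f) was at 71.7 and 83.6 CPM (WT), 48.9 and 52.2 CPM (clone 1) and 62.4 and 65.8 CPM (clone 2), again without overlap, and fell by 0.45 ± 0.10 (adjusted p = 0.00207). Atp5l (subunit g) was at 6.61 and 5.08 CPM (WT), 3.66 and 3.64 CPM (clone 1) and 3.30 and 3.06 CPM (clone 2). It fell by 0.76 ± 0.18 (adjusted p = 0.00277). In clone 1 its call was lost with DESeq2's Wald test (-0.669, adjusted p = 0.0732). That call was also lost without WT replicate 1 (log2 change -0.469) or either clone 1 library. Of its 50-base stretches, 9.99% occur in transcripts of other genes. Subunits e and g are known to sit beside each other where ATP synthase dimers bend the membrane.

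Atp5mpl, a small proteolipid, fell by 0.33 ± 0.11 (adjusted p = 0.0186), a call lost without WT replicate 2, clone 1 replicate 1 or clone 2 replicate 1. It was also lost with no filter on low counts. With single libraries left out, its clone 1 call was kept in 2 of 6 fits and its clone 2 call in 1 of 6. DESeq2's Wald test and a block for the replicate number lost both of these calls. Atp5s was at 6.02 and 5.49 CPM (WT), 4.50 and 4.54 CPM (clone 1) and 2.89 and 3.02 CPM (clone 2), lowest in clone 2, with a mean change of -0.65 ± 0.17 (adjusted p = 0.00496). Atp5o, the subunit that confers oligomycin sensitivity, was at 100.4 and 84.1 CPM (WT), 62.2 and 65.6 CPM (clone 1) and 92.4 and 75.6 CPM (clone 2), where clone 2 overlapped WT. Its mean change of -0.33 (adjusted p = 0.0235) was lost without WT replicate 1, either clone 1 library or clone 2 replicate 2. It was also lost with shifts removed and with no filter on low counts. A read-through model that shares the name Atp5o had no read in any library, and 41.6% of the 50-base stretches of Atp5o occur in other genes' transcripts.

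Of the 5 F1 subunits of complex V, 1 was lower in the mean of the clones (20%), and 4 of 7 membrane subunits were (57.1%). The share over all tested genes was 29.3%. In single clones, 2 of the 5 were lower in clone 1 and 2 higher in clone 2. The membrane subunits had 4 lower in clone 1, and 3 lower and 1 higher in clone 2. The difference between these parts was not tested. Atp5b, the member with the highest WT level per length (473 RPKM), was at 2004 and 2003 CPM (WT), 1525 and 1608 CPM (clone 1) and 2384 and 2012 CPM (clone 2). Clone 1 was below both other groups, and clone 2 was above WT, in 1 library by little. The change was -0.35 ± 0.12 in clone 1 (adjusted p = 0.0235), while clone 2 stood at 0.13 ± 0.12 (adjusted p = 0.362). With the shift of chromosome 10 removed, the clone 1 value was 0.049 (adjusted p = 0.761) and the mean was 0.27 (adjusted p = 0.0434), so its direction rests on that choice. The clone 1 call was also lost without either WT library or either clone 1 library, and with no filter on low counts. Atp5d, the delta subunit of F1 and also on chromosome 10, was at 222 and 266 CPM (WT), 129 and 127 CPM (clone 1) and 212 and 189 CPM (clone 2), lowest in clone 1. It changed by -0.93 ± 0.12 in clone 1 (adjusted p = 3.55e-05), while clone 2 stood at -0.28 ± 0.12 (adjusted p = 0.0641), and its mean change of -0.61 became -0.23 (adjusted p = 0.0818) with the shift removed.

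Of the 3 genes that encode the same mature c-ring subunit, Atp5g3 carried nearly all reads. It was at 188 and 179 CPM (WT), 166 and 189.5 CPM (clone 1) and 262 and 232 CPM (clone 2), with clone 2 above all other libraries. Its change was 0.43 ± 0.12 in clone 2 (adjusted p = 0.0074), which was lost with shifts removed (0.14, adjusted p = 0.355) and without clone 2 replicate 1. Atp5g1 and Atp5g2 lay between 1.45 and 2.89 CPM and were not called. STAR's gene counts leave out reads that map to several places, and 38.4% of the 50-base stretches of Atp5g2 occur in other genes' transcripts, so these 2 levels are uncertain. Atp5h, a stalk subunit, was nearest to no change (-0.012 ± 0.10, adjusted p = 0.932).

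Grouped by role, both kinds of member had 1 direction near the share over all tested genes (26.5% higher, 29.3% lower) and the other below it. Of the 24 assembly factors of complexes I to IV, 7 were higher (29.2%) and 3 lower (12.5%) in the mean of the clones, with a median of 0.078. The subunits were counted without Cox6a2 and Cox7a2l, classed as tissue isoforms or paralogs, and without the coupling factor Atp5s, which all fell. Of the 75 tested subunits left, 4 were higher (5.33%) and 24 lower (32%), with a median of -0.17, beside -0.022 over all tested genes. The 7 higher factors were Uqcc1, Uqcc2, Ndufaf4, Cox10, Sdhaf3, Ndufaf5 and Cox18, and the 3 lower were Sdhaf4, Uqcc3 and Cox19. No test was made between the roles.

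The direct comparison of the clones does not use WT as a reference, although WT adds to the estimate of spread. Of the same 75 subunits, again without Cox6a2, Cox7a2l and Atp5s, 18 were higher in clone 2 (24%) and 1 was lower (1.33%). Their median was 0.22, and over all tested genes 11.3% were higher and 10.7% lower. Of the 24 assembly factors, Cox18 was the 1 called (4.17%), and their median was -0.00605. Uqcr11 differed by 0.74 ± 0.14 (adjusted p = 0.00253), Ndufa8, an accessory subunit of complex I, by 0.72 ± 0.12 (adjusted p = 0.00137), Cox6a1 by 0.66 ± 0.12 (adjusted p = 0.00215) and Atp5d by 0.65 ± 0.12 (adjusted p = 0.00297), all by edgeR's quasi-likelihood test. Ndufa8 was at 74.1 and 84.7 CPM (WT), 45.8 and 45.9 CPM (clone 1) and 71.4 and 79.9 CPM (clone 2), so clone 1 was below both other groups and clone 2 overlapped WT. Cox7a2l was lower in clone 2, at -0.70 ± 0.11 (adjusted p = 0.001), as were Atp5s and the core subunit Ndufv2 of complex I.

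Over all tested genes, the number called between the clones depended on single libraries. With each library left out, the number of members called moved in the same direction as that of all tested genes. It was 4 higher without clone 1 replicate 1, 5 without clone 1 replicate 2, 2 without clone 2 replicate 1, 11 without clone 2 replicate 2 and 32 without either WT library. The members called in all 18 alternatives other than the 1.5-fold test were Ndufa8 and Cox6a1. The median over members was between 0.094 and 0.22 in those fits. With chromosome shifts removed, 21 members were higher in clone 2, and the 3 lower ones were no longer called (2 at an unadjusted p under 0.05). Over all 13755 tested genes, that fit called 1312 higher and 1133 lower. Cox7a2l then stood at -0.32 (adjusted p = 0.0610) and Ndufv2, on the same chromosome, at -0.058 (adjusted p = 0.795).

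**Figure D3:**
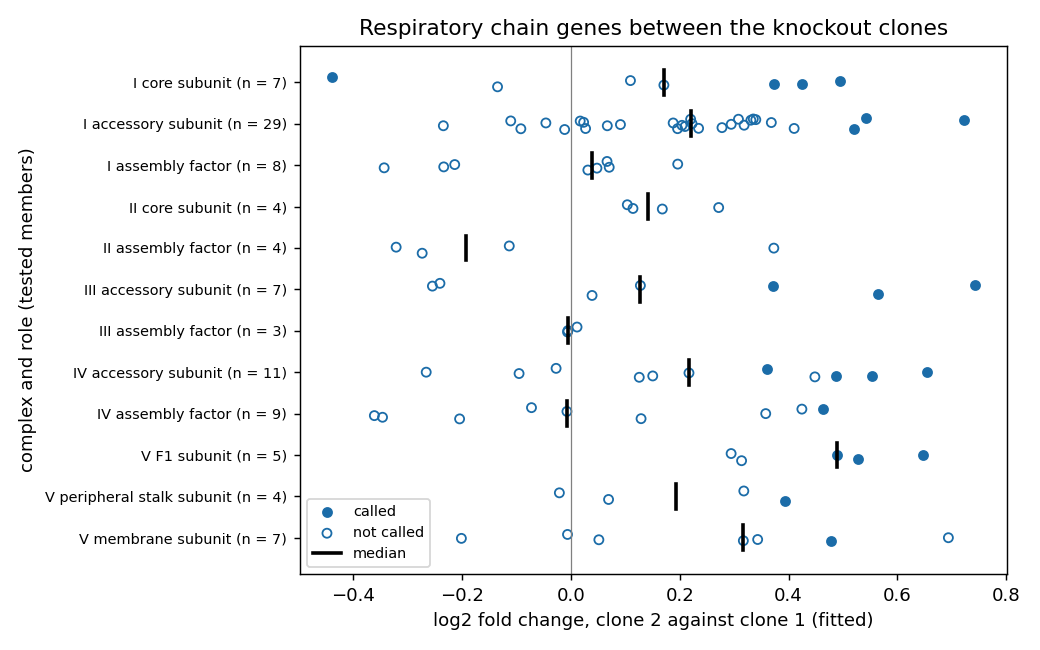
Fitted log2 fold change of clone 2 against clone 1 (horizontal axis) of 98 tested members, by complex and role (12 groups with at least 3 members). Each point is 1 gene, filled points were called and black bars are medians: the F1 subunits of complex V had the highest median, 0.49, and the assembly factors of complexes II to IV had medians below 0.

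Median levels of whole chromosomes differed between the groups. The median log2 shift over the genes of chromosome 17 was 0.56 in clone 1 and 0.18 in clone 2, that of chromosome 8 was 0.28 and 0.40, that of chromosome 2 was 0.25 and 0.29, and that of chromosome 10 was -0.40 and -0.355. The 5 tested members on chromosome 10 (Atp5b, Atp5d, Ndufa12, Ndufs7 and Uqcr11) had a median of -0.49 in clone 1 and -0.045 in clone 2, and the 8 on chromosome 2 had medians of 0.041 and 0.42. With the shifts removed, 3753 of the 13755 tested genes were lower and 3444 higher in the mean of the clones. Of the members, 28 were lower and 7 higher. Uqcrh, Uqcr10, Ndufb3, Sdhd, Cox6a2, Uqcc1 and Ndufaf4 were among those still called. The part of these shifts in the other members' changes was not tested.

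The subunits that the mitochondrial genome encodes were measured in the same libraries. Of 13, 6 were at 0 in all libraries and 7 were tested. The counts leave out reads that map to several places, so a count of 0 is not taken as absence of the RNA. Whether such reads account for the 0 values was not tested. The summed level of the 7 with reads was 9598 and 2850 CPM (WT), 6317 and 8563 CPM (clone 1) and 5605 and 3314 CPM (clone 2). WT held both the highest and the lowest library, and all 4 clone libraries lay between them. Only mt-Nd6, the subunit encoded on the opposite strand from the others, was called: it was at 64.5 and 40.8 CPM (WT), 24.6 and 29.4 CPM (clone 1) and 36.7 and 31.3 CPM (clone 2), and fell by 0.79 ± 0.17 (adjusted p = 0.00183). Without WT replicate 1 its clone 2 value was -0.255 (adjusted p = 0.174), a call also lost without either clone 2 library, and mt-Cytb, not called with all libraries (-0.57, adjusted p = 0.553), turned to 0.825 (adjusted p = 0.0253). Without WT replicate 2, mt-Cytb was called the other way, at -1.26 (adjusted p = 0.00187).

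**Figure D4:**
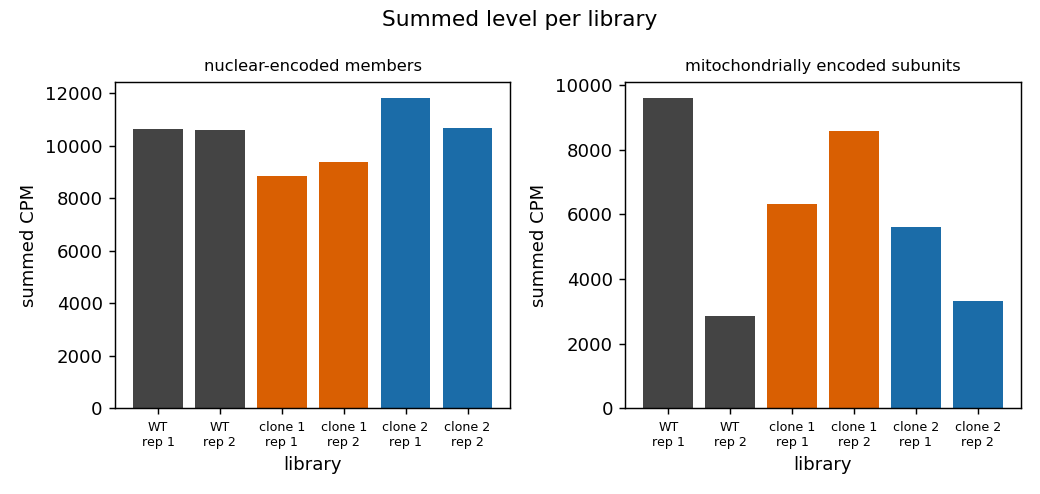
Summed CPM (vertical axes, from 0) of the nuclear-encoded members (left) and of the 7 mitochondrially encoded subunits with reads (right) in each library. Bars are libraries: the nuclear sums lay between 8838 and 11818 CPM, while the mitochondrial sums lay between 2850 and 9598 CPM with both extremes in WT.

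Genes of the chain whose names the rule does not take had fewer calls than the background of 26.5% higher and 29.3% lower: 5 rose, 6 fell and 27 were not called of 38 tested, with a median of 0.031. Tmem126b, an assembly factor of complex I, was at 19.3 and 20.8 CPM (WT), 8.81 and 9.53 CPM (clone 1) and 6.36 and 6.78 CPM (clone 2) and fell by 1.37 ± 0.12 (adjusted p = 8.59e-07) with no overlap between WT and the clones. Higd2a, a factor for complex IV and supercomplexes, was at 16.5 and 14.3 CPM (WT), 26.9 and 28.8 CPM (clone 1) and 35.9 and 24.7 CPM (clone 2), a mean change of 0.92 ± 0.15 (adjusted p = 0.00021). Ecsit, which works with Tmem126b in complex I assembly, was at 20.02 and 19.6 CPM (WT), 26.8 and 25.1 CPM (clone 1) and 36.8 and 34.6 CPM (clone 2) and rose by 0.62 ± 0.11 (adjusted p = 0.000359). Cyc1, the cytochrome c1 that Uqcrh contacts, was at 97.9 and 97.1 CPM (WT), 85.3 and 90.8 CPM (clone 1) and 147 and 126 CPM (clone 2), with a change of 0.49 ± 0.12 in clone 2 (adjusted p = 0.0032), against -0.15 ± 0.12 for clone 1 (adjusted p = 0.312).

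Among 15 transcriptional regulators of respiratory genes, 7 rose and 5 fell in the mean of the clones, beside 26.5% higher and 29.3% lower over all tested genes. Ppargc1a, the coactivator PGC-1α, had 39 reads in WT (1.68 and 1.30 CPM) and no read in the 4 clone libraries. It was at least 40.9-fold lower in the clones, taking a floor of 3 counts over those libraries. Ppargc1b, its relative, was at 2.56 and 3.01 CPM (WT), 0.441 and 0.450 CPM (clone 1) and 2.83 and 2.504 CPM (clone 2), so clone 1 was below both other groups, at -2.65 ± 0.31 (adjusted p = 1.44e-05). Pprc1, the third member of that family, was at 32.6 and 44.5 CPM (WT), 93.3 and 81.2 CPM (clone 1) and 85.2 and 84.0 CPM (clone 2) and rose by 1.15 ± 0.13 (adjusted p = 7.30e-06).

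The factors whose motifs were searched moved in different directions. Nrf1 was at 42.2 and 45.6 CPM (WT), 73.8 and 76.8 CPM (clone 1) and 93.3 and 87.4 CPM (clone 2), above WT in all clone libraries, a mean change of 0.91 ± 0.10 (adjusted p = 6.54e-06). Gabpa was at 82.0 and 70.4 CPM (WT), 66.5 and 73.0 CPM (clone 1) and 44.8 and 60.6 CPM (clone 2), a mean change of -0.33 (adjusted p = 0.0396) that was lost without WT replicate 1, either clone 1 library or clone 2 replicate 1, and with shifts removed. Unstranded counts and no filter on low counts also lost the call of Gabpa. Yy1 was at 96.8 and 96.6 CPM (WT), 127 and 128 CPM (clone 1) and 113 and 127 CPM (clone 2) and rose by 0.36 ± 0.098 (adjusted p = 0.00733). Esrra was at 25.9 and 34.3 CPM (WT), 30.4 and 27.2 CPM (clone 1) and 54.0 and 48.3 CPM (clone 2), higher in clone 2 by 0.76 ± 0.15 (adjusted p = 0.000719) and not called in clone 1 (-0.070, adjusted p = 0.716). Tfam, which packages and transcribes mitochondrial DNA, was at 59.2 and 55.0 CPM (WT), 42.6 and 45.8 CPM (clone 1) and 34.0 and 37.8 CPM (clone 2) and fell by 0.52 ± 0.10 (adjusted p = 0.000744), a call lost with shifts removed (-0.14, adjusted p = 0.278). Whether these levels bear on the members was not tested.

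Of 18 genes of the tricarboxylic acid cycle and its entry, which supplies NADH and succinate to the chain, 5 rose and 7 fell, beside a background of 26.5% and 29.3%. Ogdh, of the oxoglutarate dehydrogenase complex, was at 127 and 124 CPM (WT), 53.0 and 50.5 CPM (clone 1) and 82.0 and 73.9 CPM (clone 2), and fell by 0.98 ± 0.095 (adjusted p = 1.54e-06), more in clone 1. Cs, citrate synthase, fell by 0.42 ± 0.093 (adjusted p = 0.00166), but was at -0.044 (adjusted p = 0.719) with the shift of chromosome 10 removed. Idh3b, a subunit of isocitrate dehydrogenase, rose by 0.60 ± 0.10 (adjusted p = 0.000225). Of 20 genes of mitochondrial import and the outer membrane, 8 rose and 2 fell, beside the same background, with a median of 0.19. Phb2, a prohibitin of the inner membrane, was at 199.5 and 221 CPM (WT), 335 and 329 CPM (clone 1) and 448 and 397 CPM (clone 2) and rose by 0.83 ± 0.10 (adjusted p = 1.41e-05). Vdac3, a porin, rose by 0.69 ± 0.12 (adjusted p = 0.000244) and Tomm40, the import channel, by 0.52 ± 0.10 (adjusted p = 0.000629).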

How the data were processed

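The submitters' processing notes name FastQC, STAR 2.6.0c and build GRCm38. For each library the authors deposited 1 table of raw gene-level read counts, not normalized; by their layout they are STAR's gene counts, and the annotation release is not given in the sources used here. Column 4, which held 92.3% to 95.7% of stranded reads, was used, and its 4 summary lines (unmapped, multimapping, no feature, ambiguous) were left out. Reads assigned to genes were 43.2% to 53.1% of all reads; multimapping reads (24.7% to 29.3%) are not counted, which affects members with near-identical copies.

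Gene identifiers were matched to GENCODE M21 (54079 of 54146). edgeR 4.0.16 (R 4.3.3) scaled libraries by TMM, kept 13755 genes by filterByExpr and fitted all 6 libraries with 1 term per group and robust quasi-likelihood dispersions (glmQLFTest, Benjamini-Hochberg). Standard errors are the size of the log2 fold change divided by the root of F. The common coefficient of variation was 10.4%, with 3 residual degrees of freedom. The code of the fit was also run on simulated counts with known changes. These had the same spread in every group, so they cannot show how the wider spread of the WT libraries bears on the calls. limma 3.58.1 and DESeq2 1.42.0 gave alternatives, as did other scalings, filters, the unstranded column, a replicate block, a 1.5-fold test, chromosome shifts removed and each library left out. Shared 50-base stretches were counted over GENCODE transcripts. The members and lists were chosen with earlier results of these data known. Named genes are those of largest change per complex called in both clones, those that differ most between clones, the highest and the steadiest per complex, isoform sets, Sdha to Sdhd and the 3 smallest p per list; other called members and 6 further genes were named after their values were seen. The values of 1 member are not reported here.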

Additional observations from a re-analysis of the deposited data

Results flagged for a closer look

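Members whose change differed between the clones, by the direct test of clone 2 against clone 1 (edgeR's quasi-likelihood test, adjusted over all tested genes), had these log2 fold changes. In complex I they were 0.72 for Ndufa8, 0.54 for Ndufb11, 0.52 for Ndufb7, 0.49 for Ndufs7, 0.43 for Ndufs3 and -0.44 for Ndufv2. In complex III they were 0.74 for Uqcr11, 0.56 for Uqcrc1 and 0.37 for Uqcrq. In complex IV they were 0.66 for Cox6a1, 0.55 for Cox4i1, 0.49 for Cox6b1, 0.46 for Cox18, 0.36 for Cox5a and -0.70 for Cox7a2l. In complex V they were 0.65 for Atp5d, 0.53 for Atp5e, 0.49 for Atp5b, 0.48 for Atp5g3, 0.39 for Atp5o and -0.61 for Atp5s.

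Beyond the members, the clones differed by 2.56 in Ppargc1b, 0.83 in Esrra, 0.63 in Cyc1, 0.59 in Ogdh, 0.57 in Tomm40, 0.46 in Ecsit, 0.35 in Phb2, -0.48 in Tmem126b and -1.02 in Mki67. The calls of Ecsit, Phb2 and Tmem126b were each lost without any 1 of the 4 clone libraries, and those of Phb2 and Tmem126b also with the replicate block and without a filter on low counts. The call of Esrra was lost without clone 2 replicate 1, that of Ogdh without clone 1 replicate 2 or clone 2 replicate 1, and that of Tomm40 without replicate 1 of either clone.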

How the results depend on the processing

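Each group had 2 libraries, so the precision of single genes is limited. By edgeR's glmTreat against a change of 1.5-fold, 1 member was higher and 9 lower in clone 1, and 0 and 3 in clone 2. The counts were 1 and 4 in the mean of the clones and 0 and 0 between clones. At an unadjusted p under 0.05, 3 were higher in clone 2 and 2 between clones. Over all 13755 tested genes, the adjusted calls were 1123 higher and 1561 lower in clone 1, and 1250 and 1782 in clone 2. They were 1178 and 1692 in the mean, and 182 and 162 between clones. With chromosome shifts removed, 3 members were higher in clone 1, 7 in the mean, and 0 were lower between clones, 2 at an unadjusted p. The adjusted counts over all tested genes were 3062, 3444 and 1133. Complex III then had a median of -0.216 and complex V of -0.0828. The log2 values that changed sign were Atp5b (0.0493 in clone 1, 0.269 in the mean), Cox4i1 (-0.0386 in the mean), Cs (0.0243 in clone 2), Ndufa7 (-0.169 in clone 1, -0.0957 in the mean), Ndufv2 (-0.0652 in clone 1) and Tfam (0.0367 in clone 1). The cause was not tested. In the mean of the clones, 6 members were higher with upper-quartile scaling and 7 with DESeq2's Wald test. Fitting only both clones gave 31 higher in clone 2. Over all tested genes, the counts were 3204, 3342 and 2310 (of 13249 tested in the last fit). Upper-quartile scaling moved the median of all genes to -0.0941, and the medians to -0.188 for complex I, 0.00255 for complex II and -0.392 for complex III. Without a filter, which moved that median to 0.0928, complexes I to IV were at -0.0459, 0.148, -0.245 and -0.12, and limma-voom gave -0.0922 for complex I. An earlier form of edgeR's fit, chosen after seeing the data, moved no count by over 1.5 times.

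With single libraries left out, members were 3 to 8 higher and 19 to 35 lower in clone 1, 9 to 17 and 15 to 23 in clone 2, 6 to 13 and 26 to 34 in the mean, and 2 to 32 and 1 to 4 between clones. The lowest clone 1 counts were without clone 1 replicate 2 (3 higher) and replicate 1 (19 lower), the lowest count in clone 2 without clone 2 replicate 1 (9 higher), and in the mean without clone 1 replicate 2 or clone 2 replicate 1 (6 higher each). Over all tested genes, the numbers called between clones also fell without any 1 clone library. The medians ranged from -0.14 to -0.0257 in complex I, 0.0205 to 0.114 in II, -0.364 to -0.296 in III, -0.264 to -0.121 in IV and -0.274 to -0.102 in V. The log2 change of mt-Cytb ranged from -0.784 to 1.30 in clone 1 and from -1.26 to 0.825 in the mean, with the highest value without WT replicate 1 and the lowest without WT replicate 2.

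With the replicate number as a block, 10 members were higher and 31 lower in the mean, and 7 and 34 in clone 1. The counts were 15 and 18 in clone 2, and 15 and 2 between clones. Over all 13755 tested genes they were 3514 and 3875 in the mean, and 3187 and 3379 in clone 1. In clone 2 they were 3316 and 3712, and between clones 1278 and 1288. Pairing by number was not shown: deviations of same-numbered libraries correlated by -0.156 (WT and clone 1), 0.0819 (WT and clone 2) and 0.00474 (between clones).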
